A study of Homo sapiens with 12 samples.

Results

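HOX genes of the 4 HOX clusters were examined in 8 human tumour cell lines on 12 two-channel expression arrays. The members were all genes whose single symbol in the platform annotation was HOX, a cluster letter from A to D and a number, with antisense genes left out. They came to 29 of the 18334 genes measured, against 39 such genes in the RefSeq table of GRCh38.p14. The HOXA cluster gave 1 member, HOXA2, the HOXB cluster 10, the HOXC cluster 9 and the HOXD cluster 9, and the other HOXA genes are not analysed here. Of the 29 members, 21 had 1 array feature, 7 had 2 and HOXB3 had 3, and no filter on low values was applied.

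Capan2, HPAC and HPAFII had 1 array each, without a media label. MiaPaca2 had 2 arrays labelled DMSO, replicates 1 and 2, and a further array without a media label, and Panc1 had 2 arrays labelled DMSO, replicates 1 and 4. HCT-116 and SW620 had 1 array each without a media label, and HT29 had 2 arrays labelled DMSO, replicates 2 and 4. The submitters' design text calls all 8 lines pancreatic, but HCT-116, HT29 and SW620 are catalogued as lines from colorectal tumours, so 5 pancreatic and 3 colorectal lines were compared. On every array the RNA of a line carried the dye Cy5, and the same reference, labelled as whole human total RNA, carried Cy3. Values are read as the log2 of line divided by reference, a likely direction from the dyes that no source used here states, and all signs below would turn together if it ran the other way. A ratio shows how a gene differs between lines, not how abundant it is next to another gene, and RNA of a whole culture does not tell fewer expressing cells from less RNA per cell.

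HOX genes encode homeodomain transcription factors that give cells along the body axis their regional identity. Within a cluster, genes of low number are switched on earlier and further towards the head, and genes of high number later and further towards the tail. Adult epithelia keep a HOX pattern that follows their position along the gut, and HOX proteins bind DNA together with cofactors of the PBX, MEIS and PKNOX families.

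Arrays of 1 line resembled each other over the HOX genes more than arrays of different lines did. The 5 pairs of arrays from the same line correlated at 0.92 to 0.969 over the 29 members, and the 61 pairs from different lines at 0.028 to 0.824, with a median of 0.397. These correlations are across genes, which are not independent replicates. Over all genes the same pairs lay at 0.836 to 0.941 within lines and 0.37 to 0.731 between lines. The catalogued origins were not separated by the medians of the marker lists below. Among the colorectal and duct markers, only MUC1 kept the line means apart, narrowly. It lay at -1.20 to 3.01 in pancreatic and -2.63 to -1.23 in colorectal lines. The median of 7 measured colorectal epithelium markers was highest in a pancreatic line, HPAFII, at 3.05, with HT29 next at 1.68 and the other lines between -0.01 and 0.49. The median of 7 measured pancreatic duct markers was 2.02 in Capan2, 1.41 in HPAC and 1.60 in HPAFII, but -0.85 in MiaPaca2 and -0.11 in Panc1, against -0.80 to -0.02 in the colorectal lines. Fibroblast markers had medians of -4.51 to -3.00 over the 8 lines. The HPAFII array had the widest values, with an SD over all genes of 1.54 against 1.08 to 1.29 on the others and 10.8% of genes below -2 against 5.43% to 8.93%, and its part in the low HOX values of HPAFII below was not tested.

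Promoter windows, from RefSeq on GRCh38.p14, were matched for 12 of the 29 members. The windows of 3 HOXD genes are shown because these genes differ in CG content and were all higher in Panc1 than in HT29, as described below. The 250 bases before the start of HOXD1 lie at chr2:176188418-176188667, those of HOXD3 at chr2:176157057-176157306 and those of HOXD8 at chr2:176129455-176129704, all on the plus strand. Capitals mark CG dinucleotides.
HOXD1: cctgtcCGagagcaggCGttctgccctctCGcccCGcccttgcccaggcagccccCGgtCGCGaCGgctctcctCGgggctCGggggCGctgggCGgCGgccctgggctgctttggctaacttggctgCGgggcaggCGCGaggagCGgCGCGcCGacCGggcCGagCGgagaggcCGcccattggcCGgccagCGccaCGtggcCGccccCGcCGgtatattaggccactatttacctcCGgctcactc
HOXD3: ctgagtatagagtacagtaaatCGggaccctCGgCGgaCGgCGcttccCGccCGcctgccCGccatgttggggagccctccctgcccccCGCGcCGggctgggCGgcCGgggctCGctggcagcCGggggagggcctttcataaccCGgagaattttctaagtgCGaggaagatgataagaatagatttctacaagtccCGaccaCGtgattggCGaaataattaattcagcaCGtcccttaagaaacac
HOXD8: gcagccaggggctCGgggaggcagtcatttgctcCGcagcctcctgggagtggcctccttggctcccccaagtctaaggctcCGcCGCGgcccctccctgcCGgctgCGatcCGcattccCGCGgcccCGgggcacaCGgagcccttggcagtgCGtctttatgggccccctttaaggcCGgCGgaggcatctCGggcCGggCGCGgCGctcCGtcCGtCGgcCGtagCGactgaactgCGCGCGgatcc
The HOXD1 window held 31 CG dinucleotides, the HOXD8 window 28 and the HOXD3 window 21, against a median of 11 over 35116 promoters and a range of 4 to 31 over the 12 HOX windows. Of all promoters, 10.9% held at least as many as HOXD1, 15.9% as many as HOXD8 and 30.2% as many as HOXD3. The fewest were in the HOXD4 window, with 4. HOXD13 held 21, and HOXD10 and HOXD11 held 23 each, with differences of Panc1 minus HT29 of 0.27, 0.01 and -0.25. A link between CG content and level was not tested. HOXC4 and HOXC5 had the same annotated start, so their windows were identical, with 14 CG dinucleotides.
The window of HOXA2, at chr7:27102684-27102933 on the minus strand, is shown with capitals marking its match to TGATTNAT, a motif that PBX and HOX proteins bind together, which was searched on both strands.
HOXA2: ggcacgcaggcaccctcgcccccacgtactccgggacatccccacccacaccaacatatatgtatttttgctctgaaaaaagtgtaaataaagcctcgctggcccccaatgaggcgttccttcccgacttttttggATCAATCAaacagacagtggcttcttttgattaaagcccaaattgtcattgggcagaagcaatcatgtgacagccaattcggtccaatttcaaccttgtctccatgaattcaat
The match lay on the strand opposite to the gene. TGATTNAT was found in 2 of the 12 HOX windows, those of HOXA2 and HOXD11, and in 2.48% of all promoters, and a match in these letters is not a measured site.

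The HOX genes spread widely between lines. The median SD over the 8 line means was 0.92 for the HOX genes and 0.52 for all genes, while the median SD between DMSO-labelled array pairs was 0.26 for HOX genes and 0.24 for all genes. A range over lines of at least 2 was reached by 19 of the 29 HOX genes, and by 34.3% of all genes. HOXB genes had the widest ranges, with a median of 3.68, against 2.41 for HOXC and 1.60 for HOXD genes. HOXB13, HOXD1, HOXD3 and HOXD13 were below 0 in all 8 lines, and HOXB1, HOXB6 and HOXC5 above 0 in all 8.

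**Figure D1:**
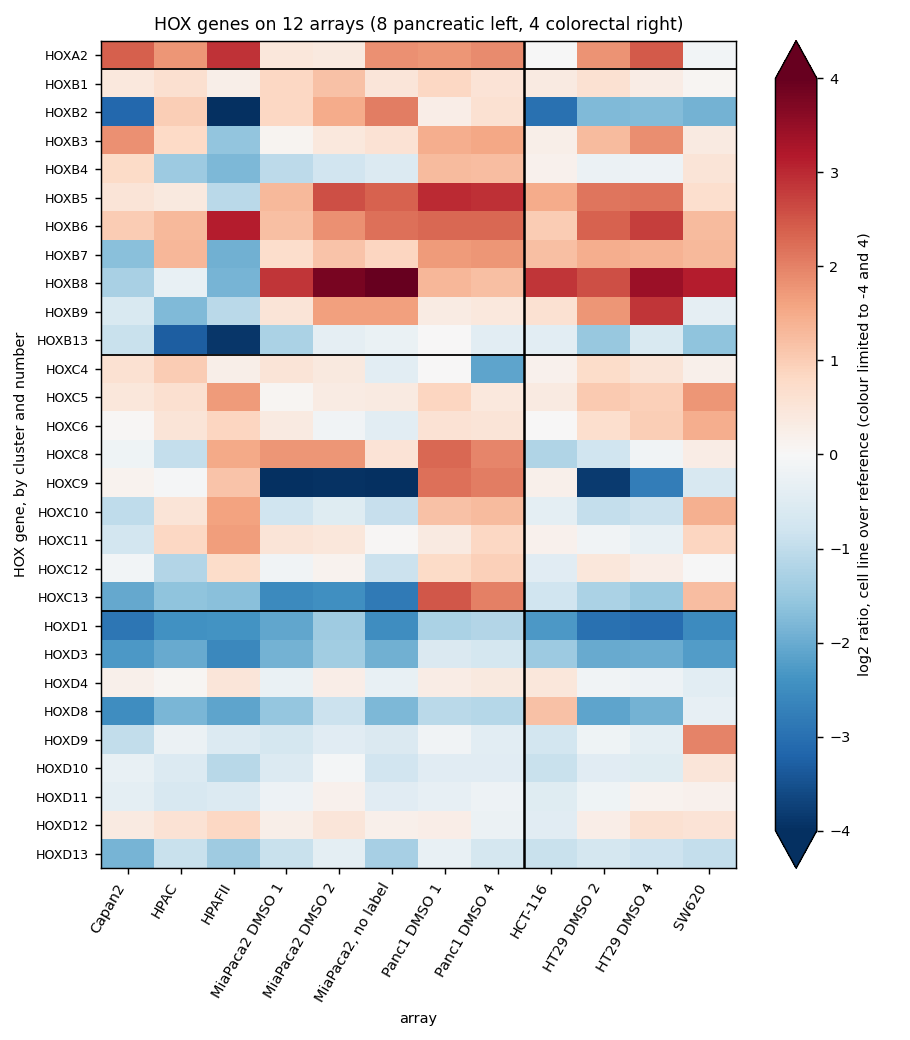
Log2 ratio of each of the 29 HOX genes (rows, by cluster and number) on each of the 12 arrays (columns, pancreatic lines left of the black line and colorectal lines right of it). Arrays of 1 line look alike, HOXB8 is red in MiaPaca2, in Panc1 more weakly, and in all 3 colorectal lines, and HOXD1 and HOXD3 are blue on every array.

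HOX profiles differed between lines, and the closest were those of HT29 and MiaPaca2, whose arrays correlated at 0.768 to 0.824 over the members. Panc1 had the most HOX genes with a line mean above 1, 11 of 29 or 37.9%, against 9.95% of all genes on that line, and the fewest below -1, 3 of 29 or 10.3%, against 15.3% of all genes. Capan2 had the fewest above 1, 3 of 29 or 10.3%, against 10.7% of all genes. HPAFII had the most below -1, 14 of 29 or 48.3%, against 21.2% of all genes. The members furthest above the reference were HOXA2 and HOXB3 in Capan2 (2.39 and 1.82), HOXA2 and HOXB7 in HPAC (1.78 and 1.32), and HOXB6 and HOXA2 in HPAFII (3.14 and 2.88). They were HOXB8 and HOXB5 in MiaPaca2 (3.79 and 2.08) and HOXB5 and HOXB6 in Panc1 (2.96 and 2.30). In the colorectal lines HOXB8 led each time, at 2.86 in HCT-116, 3.01 in HT29 and 3.15 in SW620, followed by HOXB5 at 1.49, HOXB6 at 2.55 and HOXD9 at 1.97. The members furthest below the reference were HOXB2 and HOXD1 in Capan2 (-3.13 and -2.88), HOXB13 and HOXD1 in HPAC (-3.30 and -2.41), and HOXB2 and HOXB13 in HPAFII (-5.37 and -3.90). They were HOXC9 and HOXC13 in MiaPaca2 (-4.26 and -2.62) and HOXD1 and HOXD8 in Panc1 (-1.21 and -1.11). In the colorectal lines HOXB2 and HOXD1 were furthest below in HCT-116 (-2.99 and -2.30), HOXC9 and HOXD1 in HT29 (-3.30 and -3.02), and HOXD1 and HOXD3 in SW620 (-2.51 and -2.22).

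Among the HOXB genes, HOXB2, which patterns the hindbrain, split the lines most widely. Its line means were -3.13 in Capan2, 0.99 in HPAC, -5.37 in HPAFII, 1.44 in MiaPaca2 and 0.44 in Panc1, against -2.99 in HCT-116, -1.75 in HT29 and -1.90 in SW620. It was above 0 in HPAC, MiaPaca2 and Panc1, and HPAFII was the lowest line. Its 2 features correlated at 0.96 over the 12 arrays but differed in size, reaching -7.56 and -3.18 in HPAFII, and after quantile normalization the HPAFII value was -4.11. HOXB8, which in mice acts in blood progenitors and microglia, was -1.30 in Capan2, -0.30 in HPAC, -1.84 in HPAFII, 3.79 in MiaPaca2 and 1.26 in Panc1, against 2.86 in HCT-116, 3.01 in HT29 and 3.15 in SW620. The 3 colorectal lines lay within the pancreatic range, whose highest line was MiaPaca2.

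HOXB7 was below 0 in the lines lowest for HOXB8, Capan2 and HPAFII, at -1.66 and -1.93, and between 0.90 and 1.74 in the other 6. Its 2 features ran in parallel at a correlation of 0.92 but on different scales. One reached -3.23 in Capan2 and -3.94 in HPAFII and lay at 1.25 to 2.65 elsewhere, and the other lay between -0.09 and 0.87 in all lines. HOXB13, the last gene of the cluster and known from the prostate and the hindgut, was -3.30 in HPAC and -3.90 in HPAFII and between -1.62 and -0.20 in the other lines. HOXB5, needed in enteric neural crest, was above 0 in all lines except HPAFII, at -1.06, and highest in Panc1, at 2.96. HOXB6, above 0 in every line, was highest in HPAFII, at 3.14, where its neighbours HOXB5 and HOXB7 were below 0. HOXB3 and HOXB4, which also pattern the hindbrain, ranged from -1.58 in HPAFII to 1.82 in Capan2 and from -1.79 in HPAFII to 1.26 in Panc1. Their features disagreed: the 2 HOXB4 features correlated at 0.221 over the arrays, and the third HOXB3 feature correlated at -0.073 and -0.121 with the other two. HOXB1, the first gene of the cluster, varied least in it, from 0.07 in SW620 to 0.82 in MiaPaca2.

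**Figure D2:**
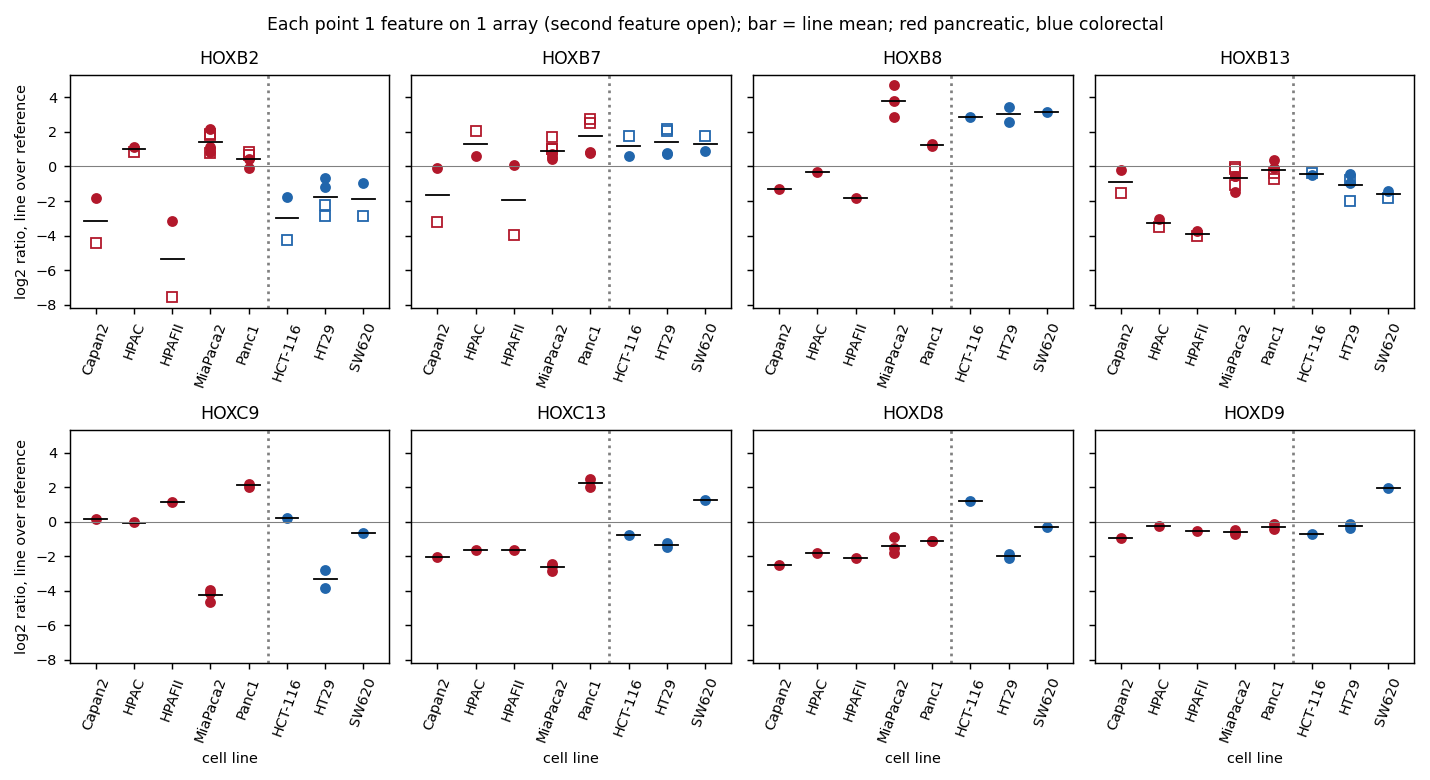
Log2 ratio (y axis) by cell line (x axis) for 8 HOX genes, with 1 point per feature and array, filled for the first feature and open for the second, and a black bar at the line mean. Pancreatic lines are red and left of the dotted line, colorectal lines blue and right of it. HOXB2, HOXC9 and HOXC13 vary within both origins, HOXD8 stands above 0 in HCT-116 and HOXD9 in SW620.

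Among the HOXC genes, HOXC9, which in mice specifies thoracic motor neurons, had the widest range. It was 0.15 in Capan2, -0.05 in HPAC, 1.14 in HPAFII, -4.26 in MiaPaca2 and 2.11 in Panc1, against 0.22 in HCT-116, -3.30 in HT29 and -0.64 in SW620. The 3 MiaPaca2 arrays, at -4.68 to -3.96, and the HT29 arrays, at -3.82 and -2.77, were all below the other 7 arrays. HOXC13, known for its role in hair and nails, was above 0 in Panc1, at 2.24, and SW620, at 1.25, and between -2.62 and -0.80 in the other 6 lines. HOXC10, which in mice acts in lumbar motor neurons, was highest in HPAFII, SW620 and Panc1, at 1.60, 1.43 and 1.22, and HOXC8, which in mice acts in brachial motor neurons, in Panc1, HPAFII and MiaPaca2, at 2.13, 1.50 and 1.35. HOXC4, HOXC5, HOXC6, HOXC11 and HOXC12 had ranges over lines of 1.49 to 2.41. The HOXC4 range rested on Panc1, whose arrays stood apart at 0.02 and -2.11, the widest array pair of any HOX gene.

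Of the 9 HOXD genes, HOXD1, HOXD3 and HOXD13 were below the reference in all 8 lines, and HOXD8, HOXD9, HOXD10 and HOXD11 in 7 of 8. HOXD8 was 1.18 in HCT-116 and between -2.49 and -0.31 in the other 7 lines. HOXD9, HOXD10 and HOXD11, neighbours that act in the limbs and the posterior axis, were highest in SW620, at 1.97, 0.50 and 0.17, against line means up to -0.23, -0.30 and -0.01 elsewhere. HCT-116 and SW620 had 1 array each, so these values have no replicate. For HOXD11, single arrays of MiaPaca2 and HT29 reached 0.16, next to 0.17 in SW620. HOXD1 was highest in Panc1, at -1.21, and lowest in HT29, at -3.02, and HOXD3 was highest in Panc1, at -0.64, and lowest in HPAFII, at -2.58. HOXD13, the digit gene at the end of the cluster, lay between -1.85 in Capan2 and -0.50 in Panc1. HOXD4, above 0 in 5 of 8 lines, and HOXD12, above 0 in 7 of 8, had ranges of 0.91 and 1.29. HOXA2, which in mice sets the identity of the second pharyngeal arch, was 2.39 in Capan2, 1.78 in HPAC, 2.88 in HPAFII, 0.89 in MiaPaca2 and 1.83 in Panc1, against -0.00 in HCT-116, 2.13 in HT29 and -0.11 in SW620. The means of all 5 pancreatic lines and HT29 were at 0.89 or higher, and those of HCT-116 and SW620 at or just below 0. The MiaPaca2 mean pools 2 DMSO-labelled arrays, at 0.46 and 0.38, with the array without a media label, at 1.83.

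The pancreatic lines were first compared with the colorectal lines, with 1 value per line. HOXB8 had the lowest difference, averaging 0.32 ± 2.27 in pancreatic lines and 3.01 ± 0.15 in colorectal lines (SD, n = 5 and 3). The difference was -2.69 (95% confidence interval -5.36 to -0.007), with an adjusted p of 0.612 (limma), and over the alternatives it ran from -3.55 to -2.14 with adjusted p of 0.293 to 0.947. The next lowest differences were those of HOXD8 (-1.41), HOXB7 (-1.24) and HOXB9 (-1.22), the last a gene that in mice shapes the ribs. The highest were those of HOXA2 (1.28), HOXC8 (1.23), HOXB2 (1.09) and HOXC9 (1.06), and none of these 8 passed the test. With HOXB2, the spread within the pancreatic lines, 2.98 (SD, n = 5), exceeded the difference itself, and for HOXC9 that spread was 2.44. Leaving out single lines moved 6 of these 8 differences by over 1.5 times. HOXC9 ran from 0.03 without HT29 to 2.08 without MiaPaca2, passing 0.49 without Panc1 and 1.79 without HCT-116. HOXB2 was 0.45 without MiaPaca2, 0.56 without HPAC, 0.70 without Panc1 or HCT-116 and 2.15 without HPAFII. HOXD8 was -0.63 without HCT-116 and -2.22 without HT29, and HOXB7 was -0.80 without Capan2 and -0.73 without HPAFII. HOXB9 was -0.49 and HOXA2 2.01 without HT29.

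By limma, 0 of the 29 HOX genes were called at an adjusted p under 0.05, where 0.0218% of all genes were, and 1, HOXB8, had an unadjusted p under 0.05, where 8.14% of all genes did. No HOX gene was called with robust limma, with cell line as a random block, or without any 1 line. No HOX gene separated the 5 pancreatic from the 3 colorectal lines without overlap, where 5.78% of all genes did. Intervals this wide do not show that the origins are alike: that of HOXB2 ran from -2.46 to 4.63 and that of HOXC13 from -3.39 to 1.72. Called means an adjusted p under 0.05 over all 18334 genes, except in the alternative that kept only the more variable genes, where p-values were adjusted over those.

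**Figure D3:**
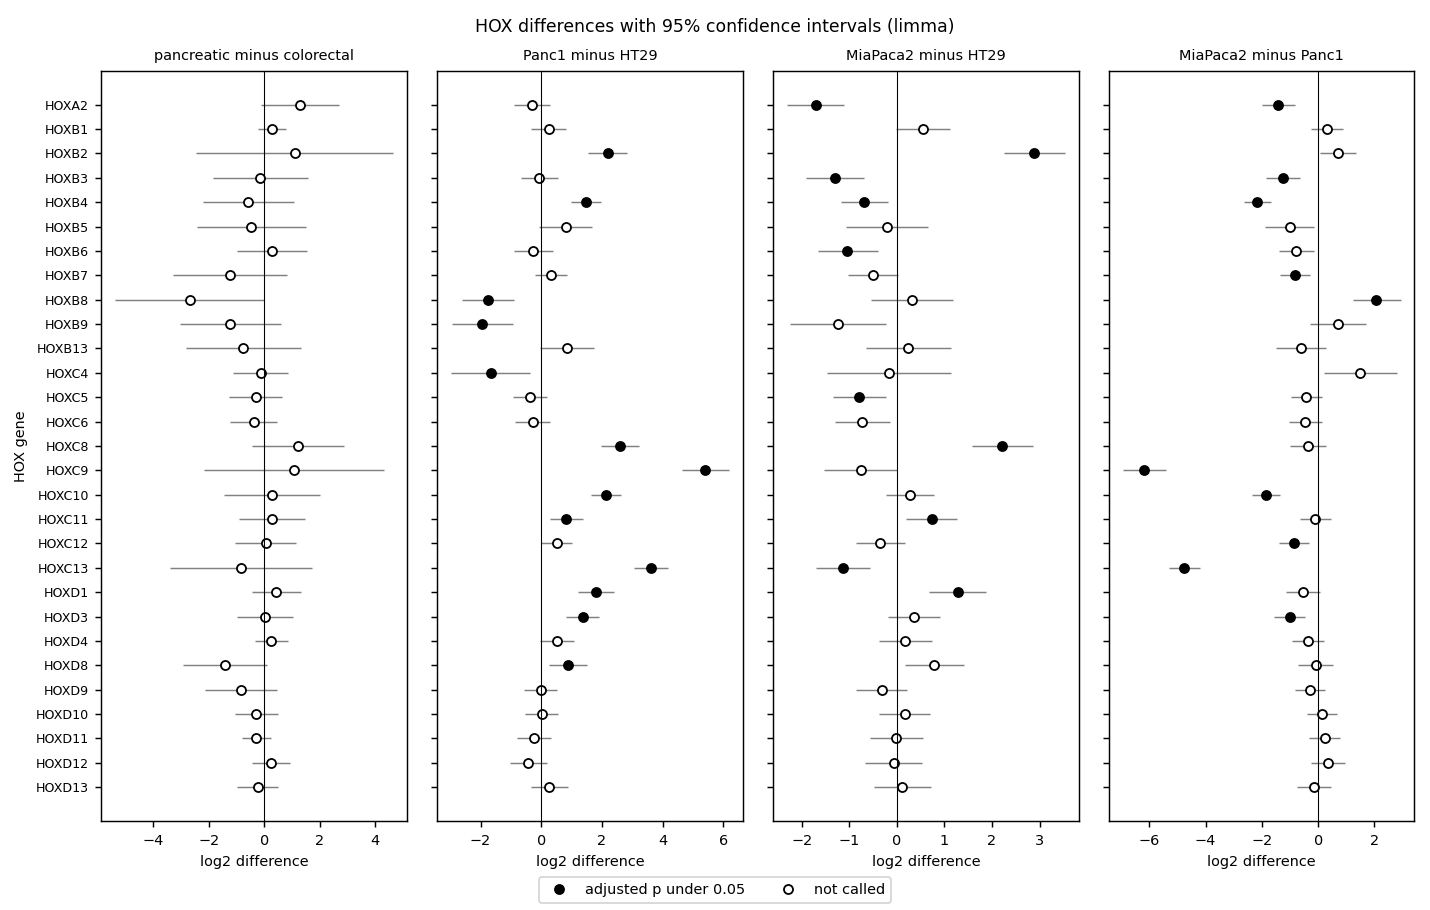
Log2 difference (x axis) with its 95% confidence interval for each HOX gene (y axis) in 4 comparisons, on separate x scales, filled where the adjusted p was under 0.05. None of the points of pancreatic minus colorectal lines is filled, against 13, 10 and 10 of 29 between single lines.

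Single lines with 2 DMSO-labelled arrays each were then compared. The labels name no separate cultures, so these p-values measure only the spread between arrays, which may be technical. In Panc1 against HT29, 13 of 29 HOX genes were called, or 44.8%, against 37.3% of all genes. Of these, 10 were higher in Panc1, where 21.4% of all genes were higher, and 3 were lower, where 15.9% of all genes were lower. The higher ones comprised 5 of 9 HOXC, 3 of 9 HOXD and 2 of 10 HOXB genes. The median difference of the HOX genes was 0.31, against 0.07 for all genes.

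HOXC9 differed most, with 2.19 and 2.03 in Panc1 against -3.82 and -2.77 in HT29, a difference of 5.41 (SE 0.335, adjusted p 1.17e-05). HOXC13 stood at 2.49 and 2.00 in Panc1 against -1.26 and -1.48 in HT29, a difference of 3.61 (SE 0.245, adjusted p 1.79e-05). Neither gene's arrays overlapped between the lines. HOXC8 (2.59), HOXB2 (2.19) and HOXC10 (2.13) followed, with adjusted p up to 0.000503. The 2 features of each gave 2.12 and 3.06 for HOXC8, 1.09 and 3.29 for HOXB2, and 1.46 and 2.81 for HOXC10. The HOXD1 arrays were -1.26 and -1.16 in Panc1 against -2.99 and -3.06 in HT29, a difference of 1.81 (SE 0.261, adjusted p 0.00102). The remaining higher genes were HOXB4 (1.47), HOXD3 (1.36), HOXD8 (0.88) and HOXC11 (0.83). The HOXB4 difference was 2.79 on 1 feature and 0.15 on the other.

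Of the 3 genes lower in Panc1, HOXB8 stood at 1.32 and 1.19 in Panc1 against 2.59 and 3.43 in HT29, a difference of -1.76 (SE 0.372, adjusted p 0.00676). HOXB9 stood at 0.31 and 0.41 in Panc1 against 1.77 and 2.85 in HT29, a difference of -1.95 (SE 0.439, adjusted p 0.00898). The HT29 arrays lay above both Panc1 arrays for each of these genes. The third, HOXC4 (-1.66, adjusted p 0.0492), rested on Panc1 replicate 4: without that array the difference was -0.60 and the gene was not called. Under every alternative tried, 9 of the 13 were called, namely HOXB2, HOXB4, HOXB8, HOXC8, HOXC9, HOXC10, HOXC13, HOXD1 and HOXD3. No alternative used the HOXB4 feature with the small difference alone, so the disagreement of its features is not covered.

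In MiaPaca2 with the DMSO label against HT29, the same HT29 arrays served again. Of 29 HOX genes, 10 were called, or 34.5%, against 31.9% of all genes, a share near the background. With the replicate number as a block 6 were called, and the count also fell without HT29 replicate 4. The share of all genes called in those fits is not given here. Of the 10, 4 were higher in MiaPaca2, where 17.4% of all genes were higher, and 6 were lower, where 14.5% of all genes were lower. HOXB2 stood at 0.81 and 1.48 in MiaPaca2 against -1.78 and -1.72 in HT29, a difference of 2.89 (SE 0.276, adjusted p 0.000129). HOXC8 stood at 1.77 and 1.75 in MiaPaca2 against -0.80 and -0.13 in HT29, a difference of 2.22 (SE 0.277, adjusted p 0.000547). In both genes the MiaPaca2 arrays lay above the HT29 arrays. HOXD1 (1.28) and HOXC11 (0.73) were the other two higher genes. HOXA2 stood at 0.46 and 0.38 in MiaPaca2 against 1.81 and 2.45 in HT29, a difference of -1.71 (SE 0.261, adjusted p 0.0016), and the MiaPaca2 array without a media label, at 1.83, lay inside the HT29 range. The other lower genes were HOXB3 (-1.31), HOXC13 (-1.14), HOXB6 (-1.04), HOXC5 (-0.79) and HOXB4 (-0.69), with -1.31, -2.48 and -0.13 on the 3 HOXB3 features. HOXB2, HOXB3, HOXC8 and HOXD1 were called under every alternative tried, but no alternative used the HOXB3 feature at -0.13 alone.

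In MiaPaca2 with the DMSO label against Panc1, which shares arrays with both comparisons above, 10 of 29 HOX genes were called, or 34.5%, against 18.7% of all genes. Of these, 9 were lower in MiaPaca2, where 11.3% of all genes were lower, and 1 was higher, where 7.4% of all genes were higher. HOXC9 stood at -4.15 and -3.96 in MiaPaca2 against 2.19 and 2.03 in Panc1, a difference of -6.17 (SE 0.335, adjusted p 1.84e-05). HOXC13 stood at -2.56 and -2.46 in MiaPaca2 against 2.49 and 2.00 in Panc1, a difference of -4.75 (SE 0.245, adjusted p 1.51e-05). These were the 2 lowest differences of any HOX gene in the comparison, and in both the arrays of the lines were far apart. HOXB4 (-2.16), HOXC10 (-1.86), HOXA2 (-1.41), HOXB3 (-1.24), HOXD3 (-1.01), HOXC12 (-0.86) and HOXB7 (-0.82) were lower as well, and the HOXB4 difference was -3.92 on 1 feature and -0.40 on the other. The HOXB3 features differed by -1.42, -2.67 and 0.37, so that 1 of the 3 ran the other way. HOXB8 was the higher gene, with 2.87 and 3.79 in MiaPaca2 against 1.32 and 1.19 in Panc1, a difference of 2.07 (SE 0.372, adjusted p 0.00647). HOXB4, HOXB8, HOXC9, HOXC10 and HOXC13 were called under every alternative tried, but no alternative used the HOXB4 feature at -0.40 alone. Without MiaPaca2 replicate 2 the count rose, without Panc1 replicate 4 it fell, and with the replicate number as a block it was 6. The share of all genes called in those fits is not given here.

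MiaPaca2 arrays with the DMSO label were also set against the MiaPaca2 array without a media label, where the lone array was assumed to vary like the others. By limma, 0 of 29 HOX genes were called, where 0.6% of all genes were, and 5 had an unadjusted p under 0.05, where 17.0% of all genes did. Robust limma also called 0. The 5 were HOXA2 (-1.41), HOXB8 (-1.38), HOXB2 (-0.89), HOXC8 (1.22) and HOXC12 (0.85), and the lowest adjusted p was 0.0947, for HOXA2.

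The genes around the HOX system were taken from lists chosen with results of these data known. Of 9 TALE cofactor genes, which encode the PBX, MEIS and PKNOX partners of HOX proteins, 8 were measured, and none was called between origins. In Panc1 against HT29, 3 were higher and 2 lower, 62.5% of the list against 37.3% of all genes. In MiaPaca2 against HT29, 4 were higher and 2 lower, 75.0% against 31.9% of all genes. PBX4 differed most in Panc1 against HT29, by 2.29 (SE 0.256, adjusted p 0.00026), and MEIS1, compared between MiaPaca2 and HT29, was lower in MiaPaca2 (-1.24, SE 0.228, adjusted p 0.00411). In MiaPaca2 against Panc1, 1 was lower, PBX4 (-1.40), or 12.5% against 18.7% of all genes.

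Of 28 ParaHox and gut patterning genes, 23 were measured and none was called between origins. CDX1 and CDX2, the intestinal relatives of HOX genes, had differences of pancreatic minus colorectal lines of -0.11 and 0.17, PDX1, the pancreatic one, -0.49, and PRAC1, a gene beside HOXB13, 0.11, with adjusted p of 0.704 to 0.941. CDX2 was highest in HPAFII, at 2.62, and between 0.93 and 1.21 in the other 7 lines, and PRAC1 lay between -0.86 and -0.00 in all lines. In Panc1 against HT29, 8 of the 23 were higher and 5 lower, 56.5% of the list against 37.3% of all genes. Among the higher ones the endoderm factor GATA5 had the largest difference, 5.11 (SE 0.259, adjusted p 4.93e-06), and among the lower ones FOXA1, another endoderm factor, at -5.78. In MiaPaca2 against HT29, 3 were higher and 6 lower, 39.1% against 31.9% of all genes, and in MiaPaca2 against Panc1, 1 was higher and 6 lower, 30.4% against 18.7%.

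Of 31 Polycomb and Trithorax genes, which keep HOX clusters silent or active, 27 were measured and none was called between origins. In Panc1 against HT29, 5 were higher and 1 lower, 22.2% of the list against 37.3% of all genes. In MiaPaca2 against HT29, 5 were higher and 2 lower, 25.9% against 31.9%, and in MiaPaca2 against Panc1, 2 were lower, 7.4% against 18.7%. KDM6A, a demethylase of the Polycomb mark, averaged -4.76 in DMSO-labelled MiaPaca2 against 0.04 in HT29, a difference of -4.80 (SE 0.281, adjusted p 1.09e-05), and lay between -0.07 and 0.30 in the other lines. PHC1, a Polycomb subunit, was higher in Panc1 than in HT29 by 2.15 (SE 0.224, adjusted p 0.000179).

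Of 18 retinoic acid pathway genes, whose signal switches on HOX genes of low number, 15 were measured and none was called between origins. In Panc1 against HT29, 3 were higher and 1 lower, 26.7% of the list against 37.3% of all genes. In MiaPaca2 against HT29, 3 were higher and 3 lower, 40.0% against 31.9%, and in MiaPaca2 against Panc1, 2 were higher and 3 lower, 33.3% against 18.7%. ALDH1A1 was above 0 only in HT29 and MiaPaca2, with line means of 3.34 and 3.66, and lay between -4.15 and -1.55 in the other lines. For this gene, which makes retinoic acid, Panc1 stood at -3.56 against 3.34 in HT29 (difference -6.90, SE 0.345, adjusted p 4.66e-06). CYP26A1, which breaks it down, was lower in DMSO-labelled MiaPaca2 than in the MiaPaca2 array without a media label, with a difference of -1.95 (SE 0.259, adjusted p 0.0256), a test in which the lone array has no replicate and its spread is borrowed from the other groups.

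A list of 17 other transcripts of the HOX clusters had 8 measured, all noncoding except EVX1, and none called between origins. In Panc1 against HT29, 2 were higher and 6 lower, all 8 measured, against 37.3% of all genes. In MiaPaca2 against HT29, 6 were lower, 75.0% against 31.9%, and in MiaPaca2 against Panc1, 2 were lower, 25.0% against 18.7%. HOTTIP, transcribed from the HOXA end that holds the high numbers, stood at 0.57 and 0.43 in Panc1 against 3.71 and 4.34 in HT29, a difference of -3.53 (SE 0.287, adjusted p 4.84e-05). No other line reached above 0.50 for HOTTIP. HOTAIR, transcribed within the HOXC cluster, stood at -2.29 and -1.92 in DMSO-labelled MiaPaca2 against 2.72 and 2.91 in HT29, a difference of -4.92 (SE 0.234, adjusted p 5.43e-06). HOXC-AS3, antisense in the HOXC cluster, stood at 1.29 and 1.03 in Panc1 against -2.97 and -3.16 in HT29, a difference of 4.22 (SE 0.22, adjusted p 5.27e-06), and was 0.01 in SW620 and -0.97 or lower in the other 6 lines. The lines with the highest HOXC-AS3, Panc1 and SW620, were also the lines with HOXC13 above 0.

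Correlations across the 8 lines were highest, in the median, for neighbouring genes of a cluster. The median Pearson correlation over line means was 0.47 for 25 pairs of adjacent measured genes, 0.29 for 92 other pairs within a cluster, -0.06 for 20 pairs of the same number in different clusters and 0.01 for 269 other pairs. These are descriptions over 8 lines that share the reference RNA and, in pairs, the arrays. Adjacent HOXB genes had a median of 0.67, adjacent HOXC genes 0.31 and adjacent HOXD genes 0.26. HOXB7 with HOXB8 gave 0.755, HOXB8 with HOXB9 0.743, HOXC5 with HOXC6 0.92 and HOXD9 with HOXD10 0.799. HOXB6 did not follow its neighbours, at -0.068 with HOXB5 and -0.205 with HOXB7, and the lowest adjacent pair was HOXD12 with HOXD13, at -0.35. HOXC4 and HOXC5, which share an annotated start, correlated at 0.035.

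**Figure D4:**
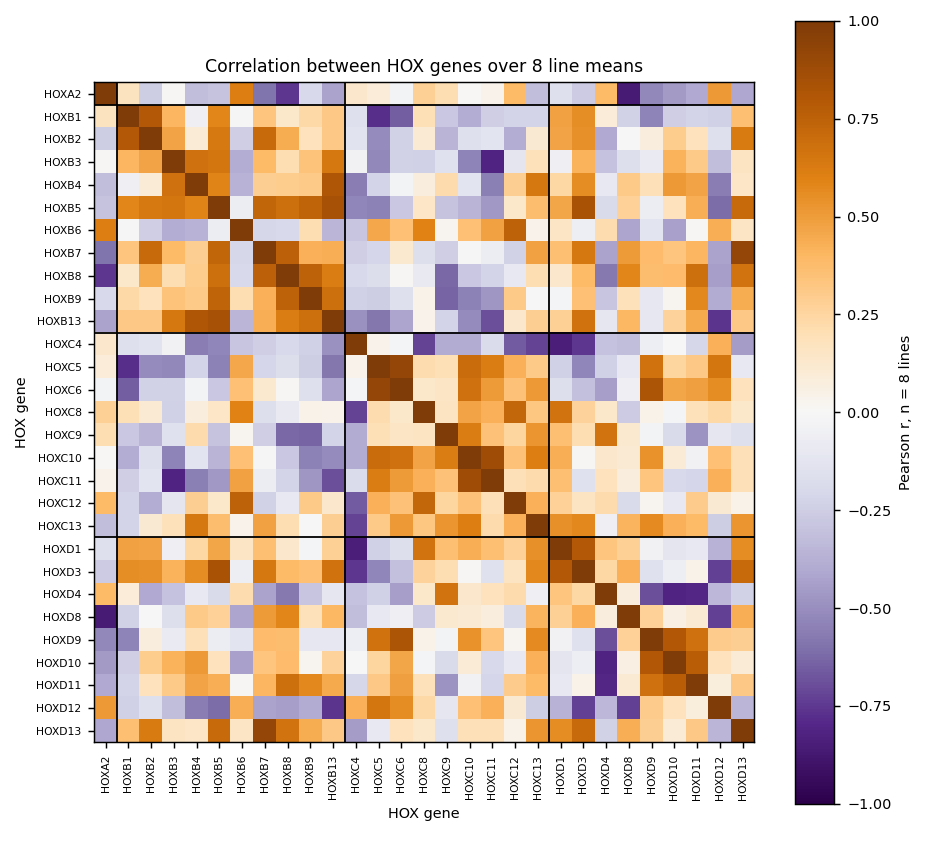
Pearson correlation over 8 line means for each pair of the 29 HOX genes, in cluster order on both axes, with black lines between clusters. HOXB genes other than HOXB6 form a mostly orange block, and adjacent genes had a median correlation of 0.47.

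For the 3 members with the widest SD over lines, the 3 genes of the whole table with the most similar line means were found. For HOXB2 they were CYP26A1 (r = 0.963), ZNF22-AS1 (0.937) and ICE1 (0.932). For HOXB8 they were USP49 (0.973), CD1B (0.971) and BHMT2 (0.97), which were below 0 in all 8 lines, and for HOXC9 they were ZC4H2 (0.958), ARHGEF10 (0.954) and CDKL2 (0.945). These are the 3 highest values for each member among 18334 genes over 8 lines, a number of lines at which high correlations are easily reached.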

How the data were processed

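Arrays of 2 channels, 12 in all, covered 8 lines. The deposited table holds 45220 features with 1 value per array, taken as log2 ratios of cell line over reference. No source used here states the log base, the direction, the background correction or the normalization, and with no intensities dim features could not be told from bright ones. The number of arrays limits the precision. A single gene symbol was annotated for 31332 features, which were kept, while 93 with several and 13795 without one were left out. A gene is the mean over its features, with no further scaling. The median over features was near 0 on each array, from -0.001 to 0.042.

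Comparisons used R 4.3.3 and limma 3.58.1, with two-sided moderated tests from eBayes after lmFit, tested on simulated data. P-values were adjusted over all genes by Benjamini-Hochberg, with a threshold of 0.05. Origins, which follow the catalogued source of the lines, were compared on 8 line means, with 6 residual degrees of freedom. Lines were compared in a fit of 9 groups of line and media label with 3 residual degrees of freedom, all from DMSO-labelled pairs. The members and lists were chosen with earlier results of these data known. Named were the called members, or with fewer than 4 called the 4 highest and 4 lowest differences between origins, the 2 highest and lowest per line, and CDX1, CDX2, PDX1 and PRAC1. List genes were named as examples after their values were seen. Alternatives were other scalings, other rules for a gene's features, a filter on variation, robust limma, blocks and leaving out arrays or lines. RefSeq of GRCh38.p14 gave names and promoter windows, and protein sequences were not used here.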

Additional observations from a re-analysis of the deposited data

Results flagged for a closer look

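Among the 5 pancreatic lines, 1 line stood far from the other four for 2 of the 29 HOX genes. HOXC5 had its highest line mean in HPAFII, at 1.69, with the others between 0.26 and 0.65. HOXC13 had its highest line mean in Panc1, at 2.24, with the others between -2.62 and -1.62. These 2 genes are 6.9% of the HOX genes, and by the same criterion 7.69% of all genes stood out, so the share is at the background, and chance gives about 1 in 20. The HPAFII value of HOXC5 comes from 1 array, and both Panc1 arrays of HOXC13, at 2.49 and 2.00, were high. SW620, a colorectal line, was also high for both genes, at 1.75 and 1.25.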

How the results depend on the processing

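The counts of called HOX genes kept within 1.5 times of the value reported in every comparison except those named here, and of 552 values of single genes under the alternatives 0 changed sign. No alternative took only the least variable feature of a gene with several, so disagreement between features was not covered. With the replicate number as a block, MiaPaca2 minus HT29 had 6 called HOX genes and MiaPaca2 minus Panc1 had 6, both against 10 without it. With 1 array left out, the counts ran from 6 to 10 for MiaPaca2 minus HT29, from 5 to 13 for MiaPaca2 minus Panc1, and from 9 to 12 for Panc1 minus HT29. MiaPaca2 minus HT29 was lowest without HT29 replicate 4, and MiaPaca2 minus Panc1 without Panc1 replicate 4. The cause was not tested. No pair of lines shares more than 1 replicate number, and no label says that a number marks a shared culture or day. The number was therefore not taken as a pairing. Deviations of same-numbered arrays correlated at 0.144, -0.01 and -0.134. With 2 arrays per line, the remaining arrays of each pair of lines must give the same values, so these correlations cannot decide on a pairing. In 64 of the 552 values a call was lost, most often for HOXC11 in MiaPaca2 minus HT29 (8 alternatives) and HOXC4 in Panc1 minus HT29 (7 alternatives). Between origins, and between MiaPaca2 arrays with and without the DMSO label, 0 HOX genes were called by limma under each alternative run. The fit of the 6 DMSO-labelled arrays alone gave the same estimates of spread, since single arrays add no residual degrees of freedom. Scaling moved no all-gene median by more than 0.1.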
